A study of Mus musculus with 10 samples.

Results

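The genes described here encode the Wnt ligands, the Frizzled receptors, their co-receptors and alternative receptors, and the proteins that mature, block or amplify the ligands. 45 symbols were chosen by name, and 39 of them are listed among the 19333 genes of the comparison of oligodendrocyte precursor cell (OPC) cultures. All 45 have a row among the 22064 genes of the tables for the cells sorted from spinal cord. Wnt1, Wnt3a, Wnt8b, Wnt10b, Wnt11 and Fzd6 were not analysed here in the OPC cultures.

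RNA sequencing covered 10 mouse libraries. 3 OPC cultures carried Olig2-Cre with Apc-fl/fl, so that Cre removes Apc wherever Olig2 is or has been expressed, and 3 came from Apc-fl/fl littermates without Cre, called wild type by the submitters. These cells were purified by immunopanning, on antibody-coated dishes, and kept for 3 days with PDGFAA, a mitogen of OPCs. The other 4 libraries came from the spinal cord on day 18 of experimental autoimmune encephalomyelitis (EAE), an immune model of multiple sclerosis, in Pdgfra-CreER:Apc-fl/fl mice: 1 library of CD4+ cells labelled Th1, and 3 of CD11b+Gr-1+NK1.1+ cells labelled cytotoxic macrophage. Pdgfra-CreER acts in Pdgfra-expressing cells, no sorted library without it was analysed here, and the labels do not say how many animals lie behind any library.

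Wnt proteins are lipid-modified by the acyltransferase Porcn and carried to the cell surface by Wls. They bind Frizzled receptors together with Lrp5 or Lrp6, which stops a complex built on Apc and Axin from marking beta-catenin for destruction. Secreted Sfrp proteins bind the ligands, Dkk1 and Dkk2 act on the Lrp co-receptors, and Lgr4, Lgr5 and Lgr6 bind R-spondins, which keep Frizzled receptors on the membrane. Apc acts downstream of all of these proteins. In the oligodendrocyte lineage Wnt signalling is known for regulating the step from precursor to myelinating cell, and Wnt7a and Wnt7b for signalling from OPCs to blood vessels.

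The authors' deposited table holds 1 comparison of the OPC cultures and no value per library, so neither the depth nor the spread of single libraries is known, and the standard error (SE) of each log2 fold change is the authors'. It names no numerator. The sign was inferred from 4 genes that respond to Wnt signalling in many tissues (Notum, Sp5, Lef1, Axin2), none of them among the 45, so that a positive value means higher in Apc-deleted cultures. Apc itself stood at -0.14 on the log2 scale (SE 0.13) and did not pass, by the authors' deposited table, where the gene-level value does not isolate the deleted exons. Some culture markers differed too: Gpr17, a marker of committed precursors, fell (-1.16, SE 0.15) and the OPC marker Matn4 rose (1.01, SE 0.24) by the authors' deposited table, as log2 fold changes, and Myrf, a regulator of myelin genes, fell (-1.08, SE 0.24). Markers of neurons were far more abundant in sum than those of OPCs: 8 neuron markers summed to 106202 normalized counts per kb of exon and 10 OPC markers to 10275, computed from the authors' deposited table. Tubb3 alone made up 65447 of the neuron sum and Nefl 18186. By the same measure 8 oligodendrocyte markers summed to 7153.5 and 7 astrocyte markers to 6627. Such sums do not give proportions of cells. Which cells in the cultures the Wnt transcripts came from was not tested, and fewer cells of a type cannot be told apart from less RNA per cell. The library labelled Th1 held 3051730 estimated reads and the macrophage libraries between 23174908 and 23564215. In the library labelled Th1, Lck had 422 reads and 8 of 9 T cell genes had 0, Cd3e and Cd4 among them. The 9 T cell genes summed to 66.3 TPM there, 10 neutrophil genes to 25190 and 9 macrophage and monocyte genes to 11101.5. Lyz2 alone made up 11006 TPM of the last sum, and Adgre1 stood at 81.6 TPM. Of those 9 genes 4 reached 1 TPM, while Ly6c2 and Ccr2 had 0 reads. Of the 10 neutrophil genes 8 reached 1 TPM, and Ly6g had 0 reads. In the macrophage libraries the neutrophil gene Ly6g stood at 743 ± 14.2 TPM and Klrb1c, which encodes NK1.1, at 0.073 ± 0.025 TPM (SD, n = 3). There 2 of 6 NK markers reached 1 TPM, Nkg7 at 16.6 ± 0.41 and Klrk1 at 1.35 ± 0.41 TPM (SD, n = 3). The same libraries also held transcripts from the macrophage and monocyte list, where 7 of 9 genes had 1 TPM or more. Mean values were 22679 TPM for Lyz2, 6376 for Ly6c2, 207 for Cd68 and 29.7 for Ccr2. That list summed to between 29057 and 29613 TPM per library, and the 10 neutrophil genes to between 433785 and 436869. The names Th1 and cytotoxic macrophage are therefore kept as labels only.

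The first comparison asked which genes differ in OPC cultures that lack Apc. 2 of the 39 listed genes rose, the ligand gene Wnt6 and the receptor gene Fzd10, and 0 fell, taking an adjusted p under 0.05 as the threshold throughout the authors' deposited table. That is 5.13% of the listed genes, where 0.548% of all genes passed and 0.393% passed as higher in the authors' deposited table. An unadjusted p under 0.05 was reached by 5 of the 39, all higher, against 3.63% of all genes (2.62% higher and 1% lower), by the authors' deposited table. The median log2 fold change was 0.02 over the 39 genes and 0.00 over all genes, so the medians lay close together. For 27 of the 39 genes, or 69.2%, the 95% interval that follows from the SE lay within 2-fold in either direction, as it did for 66.5% of all genes in the authors' deposited table. Of the listed genes with a wider interval, each apart from Wnt6, Fzd10 and Lgr5 had a mean under 30 normalized counts in the authors' deposited table.

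**Figure D1:**
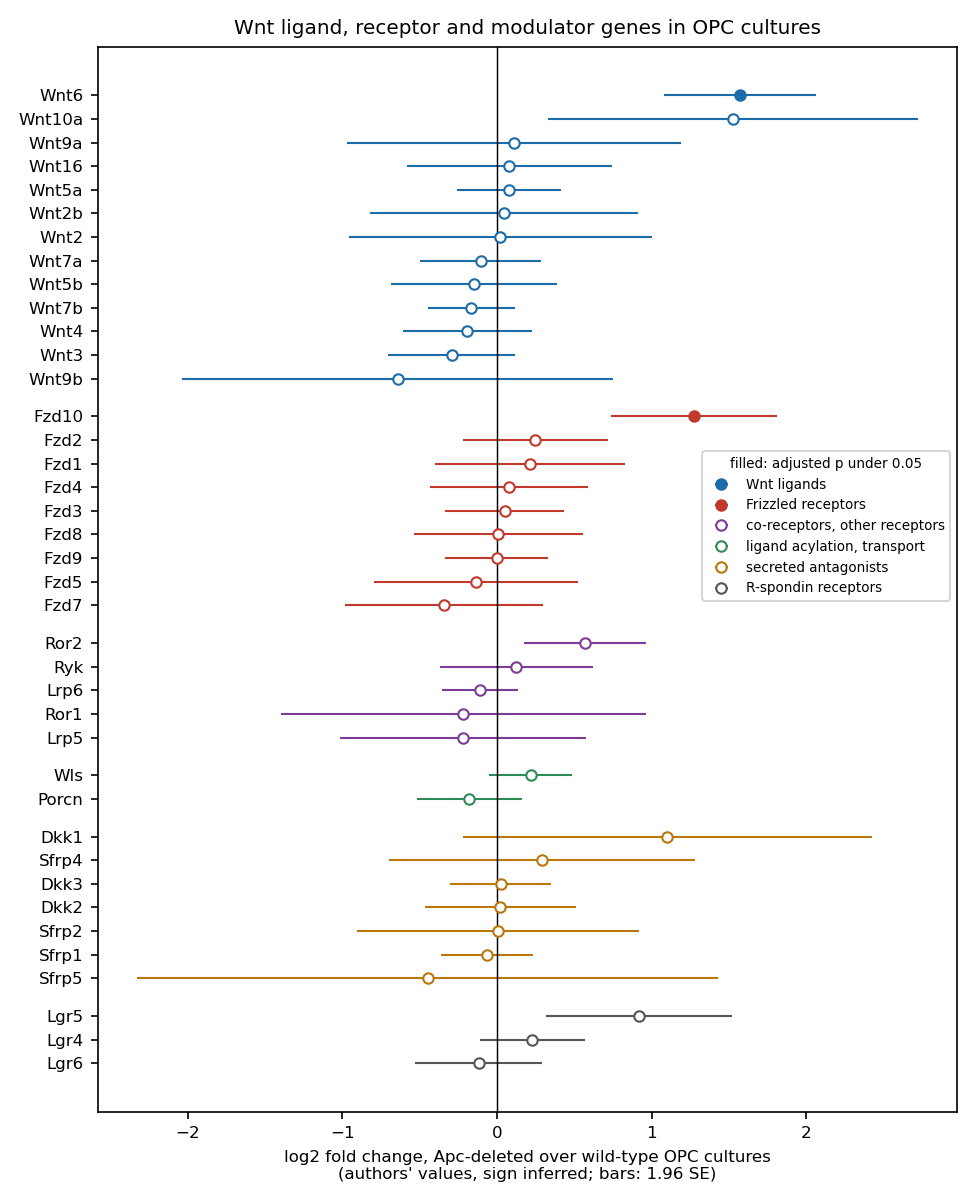
Log2 fold change of each of the 39 listed Wnt genes, Apc-deleted over wild-type OPC cultures, grouped by role; points are the authors' values with the sign inferred from Wnt targets, bars are 95% intervals from the SE, and filled points have an adjusted p under 0.05. Wnt6 at 1.57 and Fzd10 at 1.27 are the filled points, while the bars of Wnt10a, Lgr5 and Ror2 lie above 0 without passing the adjusted threshold.

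**Figure D2:**
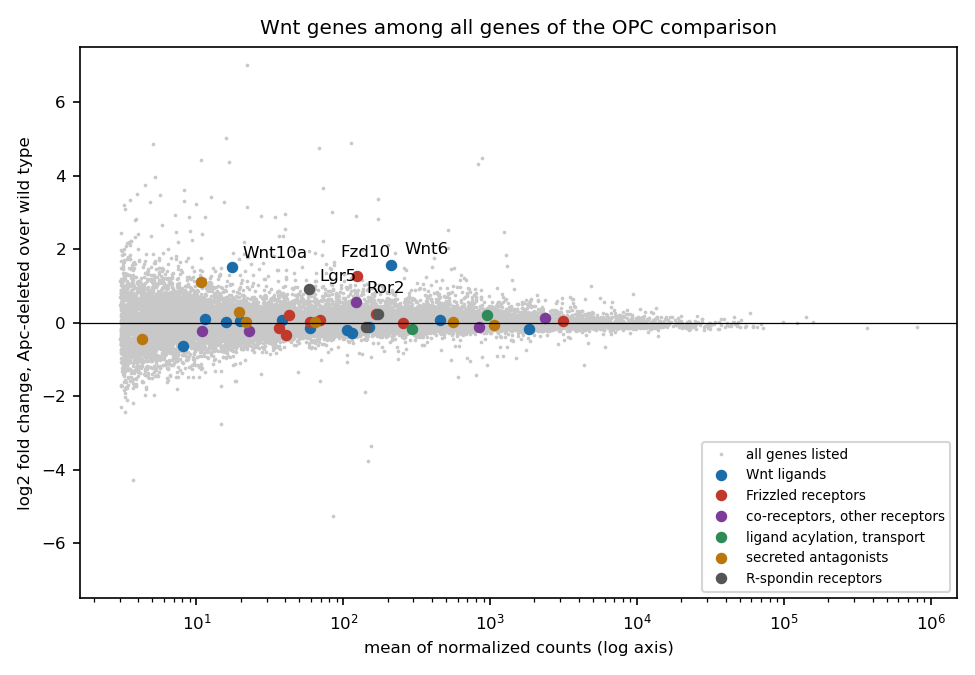
Log2 fold change against the mean of normalized counts (log axis) for all 19333 genes of the OPC comparison in grey and the 39 Wnt genes in colour by role. Wnt6 and Fzd10 stand above most grey points of their level, at mid-range levels of 213 and 125 normalized counts, and most other Wnt genes lie close to 0.

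Wnt6, a ligand known to act through beta-catenin, lies on chromosome 1 from 74771892 to 74785322 (GRCm38, plus strand). Its mean was 213 normalized counts in the authors' deposited table, and the mean and the fold there together imply 318 in Apc-deleted and 107 in wild-type cultures, if each genotype gave the same number of libraries. The authors' deposited table puts the log2 fold change at 1.57 (SE 0.25, adjusted p = 4.26e-07). As a fold this is 2.98, with a 95% interval of 2.12 to 4.18. Wnt6 ranked at place 15 by p-value among all listed genes, and its SE was 1.38 times the median SE of the 200 genes closest to it in mean level. The antisense gene Gm29539 overlaps Wnt6, and no source used here says that the counting used strand, so reads of the pair cannot be told apart.

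Fzd10, a receptor of these ligands, lies on chromosome 5 from 128600844 to 128604093 (GRCm38, plus strand). Its mean of 125 normalized counts in the authors' deposited table implies 176 in Apc-deleted and 72.8 in wild-type cultures on the same assumption. Its log2 fold change was 1.27 (SE 0.27, adjusted p = 0.00124) by the authors' deposited table. As a fold this is 2.42, with an interval of 1.67 to 3.50. The other 8 listed Frizzled genes lay between -0.34 and 0.25 in the authors' deposited table, and each of their intervals stayed within 2-fold.

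Markers of phagocytes were looked at beside these values: of 7 listed macrophage and monocyte markers 6 pointed higher, against 50.3% of all genes, by the authors' deposited table. 2 rose there, Lyz2 (4.33, SE 0.96) and Cd68 (1.54, SE 0.36), and the SE of Lyz2 was 7.12 times that of genes of similar mean level. Of those that did not pass, Adgre1 stood at 1.87 (SE 0.65), Itgam at 0.12, Csf1r at 0.01, Mertk at 0.00 and Mrc1 at -0.08 in the authors' deposited table. Their summed level is given there only over both genotypes, 1146 normalized counts per kb for the 7 markers. Of 7 microglia markers 4 pointed higher and 0 passed, though 2 had an unadjusted p under 0.05, by the authors' deposited table. Fzd10 had no read in the 3 macrophage libraries sorted from EAE cord, where a count of 0 allows up to 0.129 CPM (reads scaled to library totals) in the shallowest, by counting error alone. Wnt6 did have reads there, at 0.33 ± 0.04 TPM (SD, n = 3), a level corrected for gene length and library total. The part of phagocytes in the higher Wnt6 and Fzd10 values of the cultures was not tested.

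The promoters of both genes that rose are shown with that of Sp5, a Wnt target, because they can be searched for the same core of the site bound by TCF/LEF factors. Each sequence is from RefSeq on GRCm38.p6 and runs from 250 bases before to 50 bases after the annotated start, on the plus strand. They lie at chr1:74771642-74771941 for Wnt6, at chr5:128600856-128601155 for Fzd10 and at chr2:70474673-70474972 for Sp5. Capitals mark a match on either strand to CTTTGAA, or to the same motif ending in AT, TA or TT, 4 forms that differ in their last bases only and were counted together.
Wnt6: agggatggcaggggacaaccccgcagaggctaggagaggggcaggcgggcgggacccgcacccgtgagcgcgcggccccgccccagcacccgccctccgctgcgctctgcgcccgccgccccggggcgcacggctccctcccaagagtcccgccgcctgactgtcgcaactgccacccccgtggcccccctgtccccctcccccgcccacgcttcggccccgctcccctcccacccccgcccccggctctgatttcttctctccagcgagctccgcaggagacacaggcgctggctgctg
Fzd10: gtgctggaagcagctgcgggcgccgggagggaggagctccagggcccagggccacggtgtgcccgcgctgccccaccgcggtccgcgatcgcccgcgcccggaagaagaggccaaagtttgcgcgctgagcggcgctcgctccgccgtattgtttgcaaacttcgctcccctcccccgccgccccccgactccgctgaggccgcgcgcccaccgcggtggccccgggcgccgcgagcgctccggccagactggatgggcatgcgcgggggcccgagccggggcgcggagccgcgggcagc
Sp5: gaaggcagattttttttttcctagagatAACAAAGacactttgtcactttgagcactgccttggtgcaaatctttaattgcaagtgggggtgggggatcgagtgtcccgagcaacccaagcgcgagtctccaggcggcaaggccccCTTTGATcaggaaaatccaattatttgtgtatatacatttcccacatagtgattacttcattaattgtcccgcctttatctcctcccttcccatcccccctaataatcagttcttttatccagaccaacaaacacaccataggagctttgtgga
The Wnt6 and Fzd10 windows held 0 matches and the Sp5 window 2, CTTTGAT on the plus strand and CTTTGTT on the minus strand. Other genes that set the sign were searched too. The Axin2 window held 0 matches. Of the Lef1 windows 1 held 1 match, CTTTGTA on the minus strand, and the others held 0. A count of 0 was thus also found at other Wnt targets. At least 1 match was found in 16.9% of all 32851 RefSeq promoters of this length. For 31 of the 45 genes 34 promoters were at hand, and 5 of these promoters (14.7%) held a match, those of Wnt3, Fzd7 and Dkk1, 1 of the 3 of Wnt5b and 1 of the 2 of Wnt11. The Wnt6 and Fzd10 windows were 76.7% and 77.7% G or C, against a median of 52.7% over all promoters and 45% for Sp5. The Fzd10 window follows the RefSeq start, which differs from the start given above from GENCODE.

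Wnt10a, another ligand of the beta-catenin pathway, lies 6193 bases downstream of Wnt6 on the same strand. By the authors' deposited table its log2 fold change was 1.53, close to that of Wnt6, but its error was larger (SE 0.61, adjusted p = 0.776, unadjusted p = 0.0124) and it missed the threshold. Its mean was only 17.6 normalized counts there, which implies 26.1 in Apc-deleted and 9.05 in wild-type cultures. Within 100 kb of Wnt6, 2 more genes are listed in the authors' deposited table, Ttll4 at 0.50 (SE 0.22) and Cdk5r2 at -0.25 (SE 0.11), and neither passed. The long noncoding RNA gene 5930412G12Rik begins 150 bases from Fzd10 and is transcribed away from it. The authors' deposited table has it at 0.44 (SE 0.35), and Piwil1, the other listed gene within 100 kb, at -0.12 (SE 0.52). Wnt9b and Wnt3, the other pair of listed ligand genes that are neighbours, stood at -0.64 (SE 0.71) and -0.29 (SE 0.21) in the authors' deposited table.

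**Figure D3:**
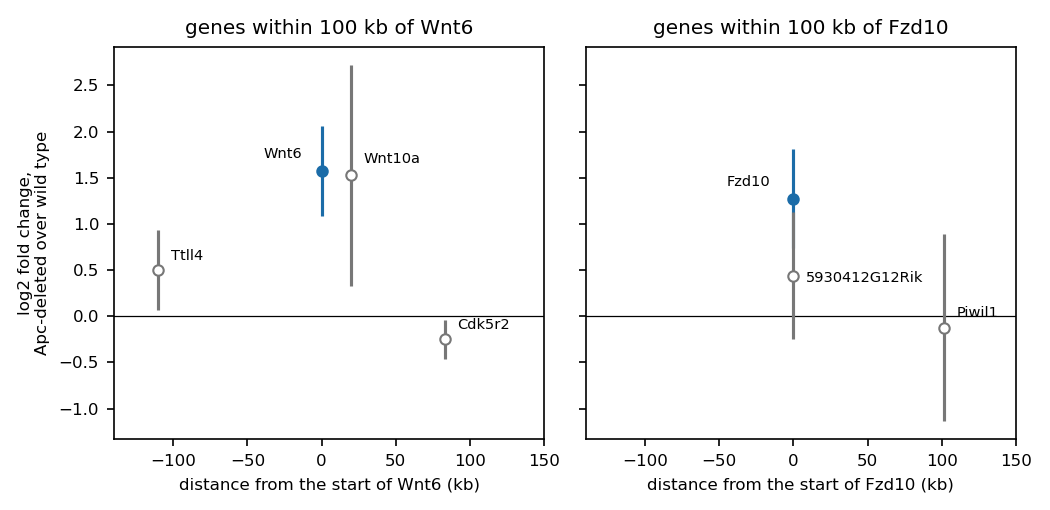
Log2 fold change (Apc-deleted over wild type, bars of 95%) of Wnt6, Fzd10 and the listed genes within 100 kb of each, against the distance in kb between their starts; filled points have an adjusted p under 0.05. Wnt10a lies at the height of Wnt6 with a wider bar, and no other listed neighbour reaches either gene.

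Among the other 11 listed ligands, log2 fold changes ran from -0.64 for Wnt9b to 0.11 for Wnt9a in the authors' deposited table, and none passed. Wnt7b was by far the most abundant ligand transcript, at 372 normalized counts per kb of exon, or 53.8% of the level summed over the 13 listed ligands. It stood at -0.17 (SE 0.14) in the authors' deposited table, with an interval of 0.734 to 1.08 as a fold. Its close relative Wnt7a stood at -0.11 (SE 0.20) and Wnt5a, a ligand known for beta-catenin-independent signalling, at 0.08 (SE 0.17) in the authors' deposited table. With the implied means, Wnt6 made up 20.3% of the summed ligand level per kb in Apc-deleted and 7.29% in wild-type cultures, and Wnt7b 49.0% in Apc-deleted and 58.9% in wild-type cultures. These shares are descriptions without an error of their own.

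Of the receptors outside the Frizzled family, 0 of 5 passed. Ror2, a receptor tyrosine kinase that binds Wnt5a, stood at 0.57 (SE 0.20, adjusted p = 0.395, unadjusted p = 0.00463) by the authors' deposited table, from an implied 146 in Apc-deleted and 98.2 normalized counts in wild-type cultures. Lrp6 stood at -0.11 (SE 0.12) in the authors' deposited table, with the smallest SE of the 39 genes. Ryk, a Wnt receptor with an inactive kinase domain, stood at 0.13 (SE 0.25) by the authors' deposited table, an SE 2.15 times that of genes of similar mean level. Lrp5 and Ror1 were low, at means of 22.7 and 10.9 normalized counts in the authors' deposited table.

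Lgr5, an R-spondin receptor known as a Wnt target and stem cell marker in the intestine, stood at 0.92 (SE 0.31, adjusted p = 0.285, unadjusted p = 0.00277) by the authors' deposited table. The implied means were 76.4 in Apc-deleted and 40.4 normalized counts in wild-type cultures. Its paralogs Lgr4 and Lgr6 stood at 0.23 (SE 0.17) and -0.12 (SE 0.21) in the authors' deposited table. Lgr5 overlaps A930009A15Rik on the other strand, so its reads may be shared. Of the 45 genes 12 overlap a gene on the other strand in this way.

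Neither gene of ligand maturation passed, Porcn at -0.18 (SE 0.17) and Wls at 0.22 (SE 0.14) in the authors' deposited table. Of the 7 secreted antagonists 0 passed, and 0 had an unadjusted p under 0.05, by the authors' deposited table. Sfrp1 and Dkk3, the abundant ones, stood at -0.06 (SE 0.15) and 0.03 (SE 0.17) by the authors' deposited table, with 95% intervals of 0.780 to 1.17 and of 0.812 to 1.28 as folds. Dkk1, known elsewhere as a feedback target of Wnt signalling, stood at 1.10 (SE 0.68) by the authors' deposited table, from a mean of 10.8 normalized counts, and did not pass.

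Levels between genes were compared per kb of exon, over both genotypes together, from the means in the authors' deposited table. Ryk was highest at 517 normalized counts per kb, above 91.7% of all listed genes, and made up 84.6% of the level summed over the 5 receptors outside the Frizzled family. After Wnt7b came Fzd3, a Frizzled receptor known for axon guidance, at 245, Sfrp1 at 243, Dkk3 at 166, Fzd9 at 112, Wls at 107, Porcn at 98.1, Wnt6 at 97.0 and Lrp6 at 61.2. Fzd3 and Fzd9 together with Fzd2 and Fzd10 held most of the Frizzled level, with shares of 50.5%, 23.0%, 9.39% and 7.88%. Fzd10 made up 10.6% of it in Apc-deleted and 4.85% in wild-type cultures by the implied means. At the other end Wnt9b, Ror1, Sfrp5 and Lrp5 lay between 1.80 and 2.33 normalized counts per kb. With no value per library, whether neighbours in this order differ could not be tested.

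**Figure D4:**
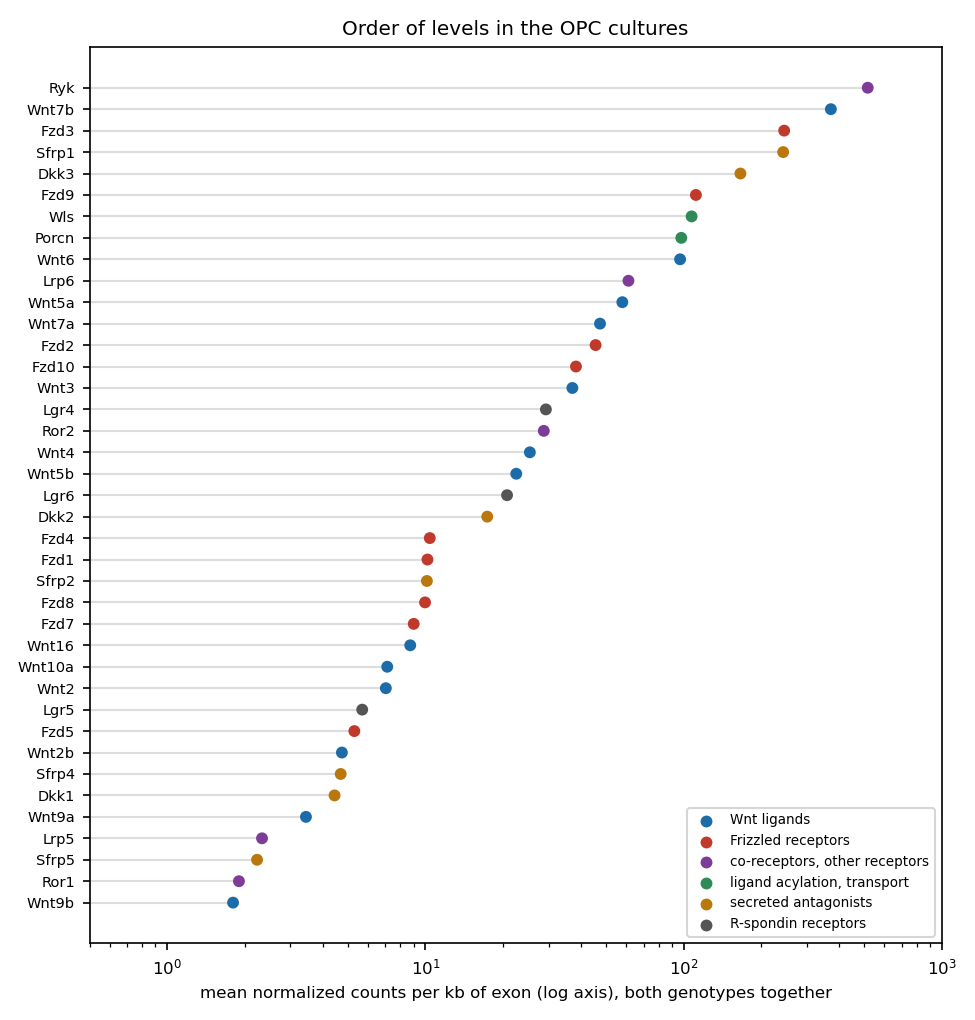
Mean normalized counts per kb of exon (log axis), over both genotypes of the OPC cultures, for the 39 listed Wnt genes in order of level and coloured by role. The levels run from 1.80 for Wnt9b to 517 for Ryk, with Wnt7b, Fzd3 and Sfrp1 next to the top.

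Genes of the pathway outside the 45 were counted in 3 lists. Of 27 extracellular and membrane partners 24 are listed, 18 pointed higher, 5 rose and 0 fell in the authors' deposited table, with a median log2 fold change of 0.31. The 5 were the Wnt-inactivating enzyme gene Notum (4.90, SE 0.49), which also helped to set the sign, the gene of the Frizzled-removing ubiquitin ligase Rnf43 (2.89, SE 0.39), the secreted antagonists Wif1 (1.51, SE 0.29) and Sostdc1 (0.95, SE 0.25), and the proteoglycan gene Gpc4 (1.05, SE 0.27) in the authors' deposited table. None of the 4 R-spondin genes passed, at values between -0.34 and 0.70 in the authors' deposited table. Of 30 cytoplasmic and nuclear genes 15 pointed higher, and 4 rose and 1 fell (16.7% passing) in the authors' deposited table, around a median of 0.03. Those that passed in the authors' deposited table were Lef1 (1.89, SE 0.29), Sp5 (2.10, SE 0.33) and Axin2 (1.01, SE 0.20), whose direction is not independent as they set the sign, with Nkd1 (2.47, SE 0.50) and, lower, Tcf7l2 (-0.43, SE 0.12). Of 15 planar polarity genes 7 pointed higher and 0 passed, around a median of -0.01, by the authors' deposited table. An unadjusted p under 0.05 was reached there by 1 of them (6.67%, against 3.63% of all genes), Prickle1, at -0.30 (SE 0.15), followed by Scrib at 0.23 (SE 0.18).

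The second set of libraries gives the same genes in cells sorted from EAE cord, where most were close to the limit of detection. In the macrophage libraries 20 of the 45 genes had at least 1 read (44.4%, against 65.8% of all genes) and 1 reached a mean of 1 TPM (2.22%, against 29.97% of all genes). That gene was Wls, the ligand carrier, with 276, 294 and 277 reads and 2.33, 2.38 and 2.22 TPM, or 2.31 ± 0.082 TPM (SD, n = 3). Wnt6 followed with 23, 30 and 26 reads and 0.29, 0.37 and 0.33 TPM, and was the only ligand above 0.1 TPM. The co-receptor gene Lrp5 came next at 0.15 ± 0.01 TPM (SD, n = 3), and the values of these 3 genes did not overlap in any library. Lrp6 at 0.087 ± 0.012, Porcn at 0.07 ± 0.046, Wnt4 at 0.053 ± 0.0058, Ryk at 0.047 ± 0.012, Fzd5 at 0.043 ± 0.012, Fzd4 at 0.04 ± 0.01 and Fzd7 at 0.03 ± 0.01 TPM (SD, n = 3) came next, and the values of neighbours among them overlap between libraries. The other 10 genes with a read had between 1 and 13 reads summed over the 3 libraries.

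These 3 libraries differed from each other by little more than counting error: chi-square per degree of freedom was 1.20 over genes with a mean under 500 reads and 3.55 above, and the common biological coefficient of variation by edgeR was 0.022. Nothing in the sources used here says that they came from separate animals, so their SDs, and p-values that rest on them, cover no more than the differences among these libraries, and those may be technical. Among the partners outside the 45 genes, Rspo1, a ligand of the Lgr receptors, was the most abundant at 2.79 ± 0.14 TPM (SD, n = 3), while Lgr4, Lgr5 and Lgr6 had 13, 7 and 6 reads over the 3 libraries. Ctnnb1, which encodes beta-catenin, stood at 3.08 ± 0.12 TPM, and the feedback genes Axin2, Notum and Rnf43 were listed at 0 TPM in each macrophage library. 9 of 10 OPC markers were at 0 TPM and the 10 summed to between 0.01 and 0.02 TPM.

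In the library labelled Th1, 10 of the 45 genes had a read (22.2%, against 29.6% of all genes), and their reads summed to 22.02 as estimated. Wnt4 and Lrp6 had 4 reads each, Fzd1 and Ryk 3, Fzd7 and Wnt5b 2, and Wnt5a, Wnt11, Fzd2 and Sfrp2 had 1. For Wnt4 this is 1.32 CPM with an exact Poisson interval of 0.357 to 3.36, against 0.385 CPM in the macrophage libraries, whose value lies inside that interval. Wnt5a, Wnt5b, Wnt11, Fzd2 and Sfrp2 had reads there and none in the macrophage libraries, but only 1 or 2 reads each in 1 library. How many of all genes were seen only there was not counted, so these 5 are not read as particular to that library. Wls and Wnt6 had no read in the library labelled Th1, where a count of 0 allows up to 0.983 CPM. This limit lies far below the 12.1 CPM of Wls in the macrophage libraries and just below the 1.12 CPM of Wnt6. With this floor Wnt6 was at least 1.14-fold lower in the library labelled Th1 by library totals, and no bound remained with the scalings used below. The exact Poisson interval for 0 reads reaches 1.21 CPM, above the level of Wnt6 in the macrophage libraries, so with that interval no bound remained by library totals either.

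The library labelled Th1 stands alone against 3 libraries that may be technical repeats, so its own spread was taken to be theirs. By edgeR's quasi-likelihood test over 11447 genes with TMM scaling, 3 of the 45 genes were called, with a difference of at least 4-fold and an adjusted p under 0.05: Wls lower in the library labelled Th1 (adjusted p = 3.63e-05), and Wnt4 (adjusted p = 0.00601) and Ryk (adjusted p = 0.0148) higher. Of all genes tested 68.2% were called, 13.7% as higher and 54.6% as lower, so calls were common among genes at large. The filter on low counts let 8 of the 45 genes into the test, some of them through the reads of 1 side alone. Ryk, with 3 and 18 reads in the library labelled Th1 and the macrophage libraries, was tested, while Fzd4, with 0 and 20, was not, so the number tested or called describes the filter as much as the genes.

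Only the call of Wls held under each of 3 scalings in edgeR. TMM raised the ratio of the library labelled Th1 to the macrophage libraries by 2.82 times over plain library totals and DESeq2 size factors by 8.07 times, and the median log2 fold change over all genes was -6.25 with library totals, -5.61 with TMM and -4.32 with size factors. Wls was at least 12.3-fold lower in the library labelled Th1 by library totals with a floor of 3 reads. The bound was 4.35-fold with TMM and 1.52-fold with size factors, the last below the 4-fold asked of a call. The exact Poisson interval for 0 reads, which reaches 1.21 CPM, would lower each of these bounds. The ratio of Wnt4 was 3.42 by library totals (95% counting interval 0.867 to 9.78), 9.65 with TMM (2.44 to 27.6) and 27.6 with size factors (6.99 to 78.9). That of Ryk was 3.83 by library totals (0.724 to 13.1), 10.8 with TMM (2.04 to 37.0) and 30.9 with size factors (5.84 to 106). With library totals, a setting added after the data were seen, neither passed edgeR's test (adjusted p = 0.0672 for Wnt4 and 0.0965 for Ryk). Wnt6 and Lrp5 passed there as lower (adjusted p = 0.0160 and 0.00589), and did not with TMM (0.146 and 0.0930). Lrp6 changed direction with the scaling, at a ratio of 0.829 by library totals, 2.34 with TMM and 6.69 with size factors. The call of Ryk was also lost without macrophage replicate 3, where Ryk no longer passed the filter.

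**Figure D5:**
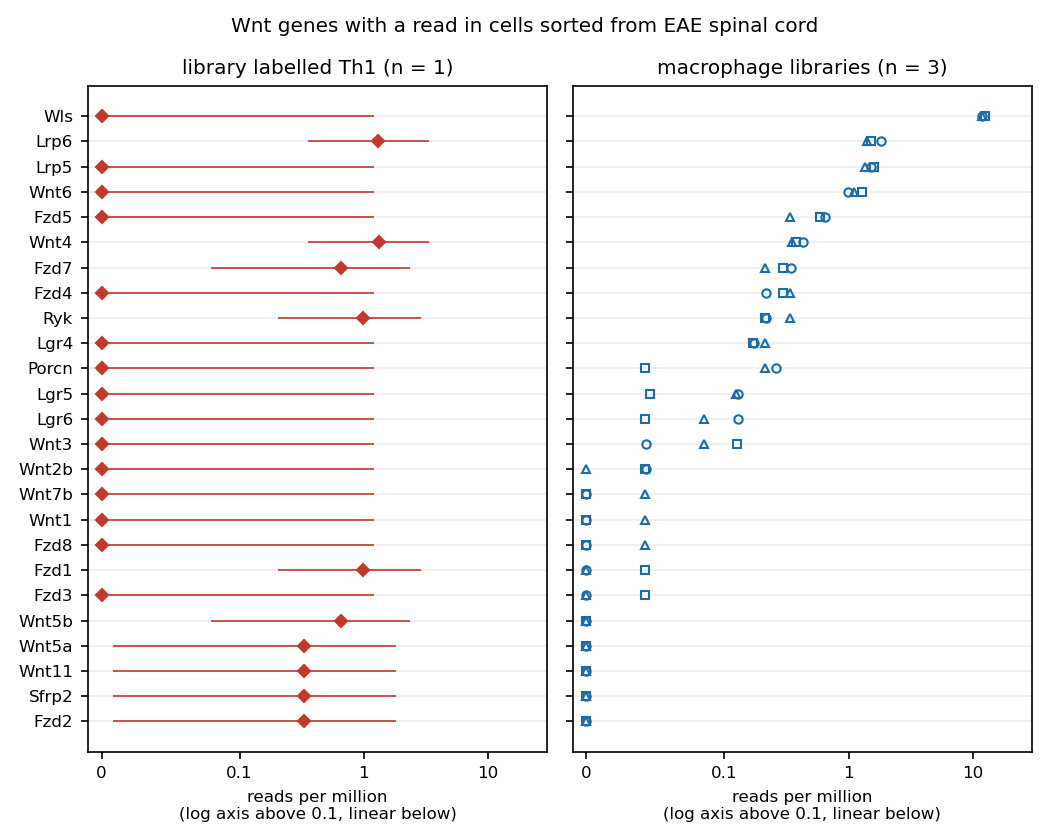
CPM of the 25 Wnt genes with a read in the sorted cells (log axis above 0.1, linear below), in the library labelled Th1 with exact Poisson intervals of 95% on the left and in each of the 3 macrophage libraries, 1 symbol per library, on the right. Wls stands apart at 12.1 in the macrophage libraries and is at 0 in the library labelled Th1, while Fzd10, 1 of the 20 genes without a read in any sorted library, is not drawn.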

How the data were processed

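For the OPC cultures the authors deposited 1 comparison table. Per the file headers it holds a mean of normalized counts (a signal per gene), a log2 fold change with its SE, a statistic (a score equal to fold change over SE), and p-values before and after adjustment, all named as DESeq2 names them. The adjusted values were used as deposited. Each immune file holds, per the file headers, TPM and estimated counts made by the authors. Per the submitters' processing notes the build was GRCm38, while aligner and counter are not given in the sources used. The codes of the macrophage columns occur in no label, so each counts as an unnumbered macrophage library.

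Blank cells became 0, and estimated counts were made whole for edgeR 4.0.16 (TMM, filterByExpr, quasi-likelihood test, Benjamini-Hochberg) and DESeq2 1.42.0. Intervals (exact Poisson, exact binomial for ratios) and the floor of 3 reads cover counting error only. The edgeR step was tested on simulated data with the macrophage profile in every library and few genes changed. In the real comparison most genes tested were called, so the simulation cannot show whether these calls are sound. Exon lengths are from GENCODE M21, which knows 99.8% of the OPC identifiers. Implied means solve the deposited mean and fold for 2 genotypes of equal size. Members and lists were chosen with earlier results of these data known. All 45 genes are accounted for, and those past a threshold, among the 10 highest in level or with at least 3 reads are named with values. Deposited FPKM and normalized read counts, 8 columns, were not used. The planned fits per OPC library could not be made from a comparison table. Other software was R 4.3.3, Python 3.11.15, scipy 1.17.1, pandas 2.3.3 and matplotlib 3.10.9.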

Additional observations from a re-analysis of the deposited data

How the results depend on the processing

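The count of 2 called genes in the OPC cultures was also 2 when p-values were adjusted again over genes with a mean of at least 10 or at least 50 normalized counts or over protein-coding genes, at an adjusted p under 0.1, and with a limit of 2-fold. Wnt6 and Fzd10 kept their calls in each readjustment, and Wnt10a, Lgr5 and Ror2 gained none in those that tested them. The readjustments reuse the same p-values over fewer genes, and both called folds already exceeded 2-fold. These settings could therefore hardly remove the 2 calls and are a weak check of them. No paired analysis was possible because the OPC file holds 1 comparison with no value per library and the macrophage columns carry no replicate number of a label. For the same reason the other planned fits per OPC library were not run. The count of 1 gene at 1 TPM in the macrophage libraries was 4 at a limit of 1 CPM, which makes no correction for length, and 1 to 1 without each macrophage replicate in turn. The count of 3 called genes in the library labelled Th1 against the macrophage libraries was 5 in edgeR with DESeq2 size factors and 5 with no filter on low counts, and 2 to 3 without each macrophage replicate in turn. It was 2 by DESeq2, Wls lower and Lrp6 higher, which gave no adjusted p to 6 of the 8 genes tested, Wnt4 and Ryk among them. Chosen after seeing the data, a spread fixed at a coefficient of variation of 0.4 gave 3, and library totals in place of TMM also gave 3, of which only Wls was shared with the TMM calls, the others being Wnt6 and Lrp5. Lrp6 reversed its direction with library totals, at a log2 fold change of -0.27 (adjusted p = 0.711) against 1.22 with TMM. No other value reversed. Depth limits the sorted libraries, above all the one labelled Th1, where no Wnt gene had more than 4 reads.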
